A study of Homo sapiens with 12 samples.

Results

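The mucin genes MUC1, MUC2, MUC3A, MUC4, MUC5AC, MUC5B, MUC12, MUC13, MUC17 and MUC20 were followed in cultured intestinal epithelial cells held at neutral or acidic pH. They were taken by name from a given list and found in the read count table by matching its Ensembl identifiers to gene symbols. All 10 were present among the 48162 genes of the table, and all 10 were among the 15630 genes expressed highly enough to be tested. The cells were T84, a long-established line from a human colon carcinoma whose cells form a polarised, crypt-like monolayer. The medium of confluent cells was replaced by Hanks buffered saline at pH 7.4, labelled control, or at pH 6.0, labelled treated, and RNA was taken after 3 h or 6 h. The 4 groups were therefore pH 7.4 at 3 h, pH 6.0 at 3 h, pH 7.4 at 6 h and pH 6.0 at 6 h, with 3 RNA libraries each. Saline was common to all of them, so no group shows the cells in growth medium, and every value comes from 1 cell line. Whether the 3 libraries of a group stand for 3 cultures is not stated in the labels. The p-values therefore reflect no more than the spread of these libraries, possibly a technical one.

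Mucins are very large glycoproteins whose tandem repeats, rich in serine and threonine, carry dense O-linked glycans. MUC2, MUC5AC and MUC5B are secreted and polymerise through their ends into mucus gel, with MUC2 the main gel former of the colon and MUC5AC and MUC5B better known from the stomach surface and the airways. MUC1, MUC3A, MUC4, MUC12, MUC13, MUC17 and MUC20 are membrane-bound and line the apical surface as part of the glycocalyx, and several of them signal through their cytoplasmic tails. In the genome the secreted mucins MUC2, MUC5AC and MUC5B follow one another on chromosome 11 with no other protein-coding gene between them, MUC3A, MUC12 and MUC17 do so on chromosome 7, and MUC20 lies next to MUC4 on chromosome 3. MUC1 is on chromosome 1 and MUC13 apart from MUC20 and MUC4 on chromosome 3.

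The libraries held 16865263 to 24331032 counts at pH 7.4 and 3 h, 13912532 to 18205946 at pH 6.0 and 3 h, 16574741 to 18921141 at pH 7.4 and 6 h, and 15383041 to 20525403 at pH 6.0 and 6 h. The 15 markers of intestinal epithelium, led by the keratin KRT8, were all expressed, with a summed level of 11776 to 15567 CPM (counts scaled by library size, with TMM factors). Markers of other cells were low: 8.15 to 34.6 CPM summed for 12 fibroblast genes, 8.75 to 12.8 for 13 leukocyte genes with MS4A1 at 0, 10.5 to 14.8 for 9 endothelial genes, 12 to 17.4 for 8 enteroendocrine genes, and at most 0.253 for 4 Paneth cell genes with REG3A at 0. The highest fibroblast sum was in replicate 2 of pH 7.4 at 6 h, where the collagen gene COL1A1 reached 14.0 CPM. Over all genes, the libraries of pH 7.4 at 6 h stood apart by gene length: Spearman's rho between a gene's deviation from its mean and its length was 0.19 to 0.33 in these 3 libraries and −0.23 to 0.16 in the other 9. This bears on the mucins because MUC2, MUC4, MUC5B, MUC12 and MUC17 are longer than 96.3% or more of the tested genes.

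One mucin dominated the family. MUC13, a membrane mucin of the intestinal surface, averaged 338.6 RPKM (reads scaled by gene length and library size) over the 12 libraries and ranged from 291.2 to 417.5. It made up 85.0% of the summed RPKM of the 10 mucins and lay at the 99.4th percentile of the tested genes. MUC20, a membrane mucin known to bind the MET receptor, followed at 26.2 RPKM (range 20.3 to 34.1), and MUC3A, an intestinal membrane mucin, at 11.5 RPKM (8.96 to 13.9). The ranges of these 3 genes overlapped neither each other nor those below, so their order held in every library.

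From there down the order was less distinct. MUC1, the widely expressed membrane mucin, averaged 6.50 RPKM (4.73 to 8.49), MUC2 5.73 RPKM (2.96 to 8.60) and MUC5AC 4.79 RPKM (3.31 to 7.65). MUC12, a membrane mucin of the colon, averaged 3.08 RPKM (1.25 to 5.27). MUC5B averaged 0.828 RPKM (0.353 to 1.36), MUC4, a large membrane mucin that associates with the receptor ERBB2, 0.744 RPKM (0.485 to 1.14) and MUC17, a membrane mucin of the intestinal brush border, 0.502 RPKM (0.141 to 0.868). From MUC1 to MUC17 the range of each gene overlapped that of the next: MUC1 exceeded MUC2 in 8 of the 12 libraries and MUC5B exceeded MUC4 in 7, while MUC5AC exceeded MUC12 and MUC12 exceeded MUC5B within each of the 12. The counts behind these levels ran from 12955 to 22323 per library for MUC13 down to 49 to 205 for MUC17.

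**Figure D1:**
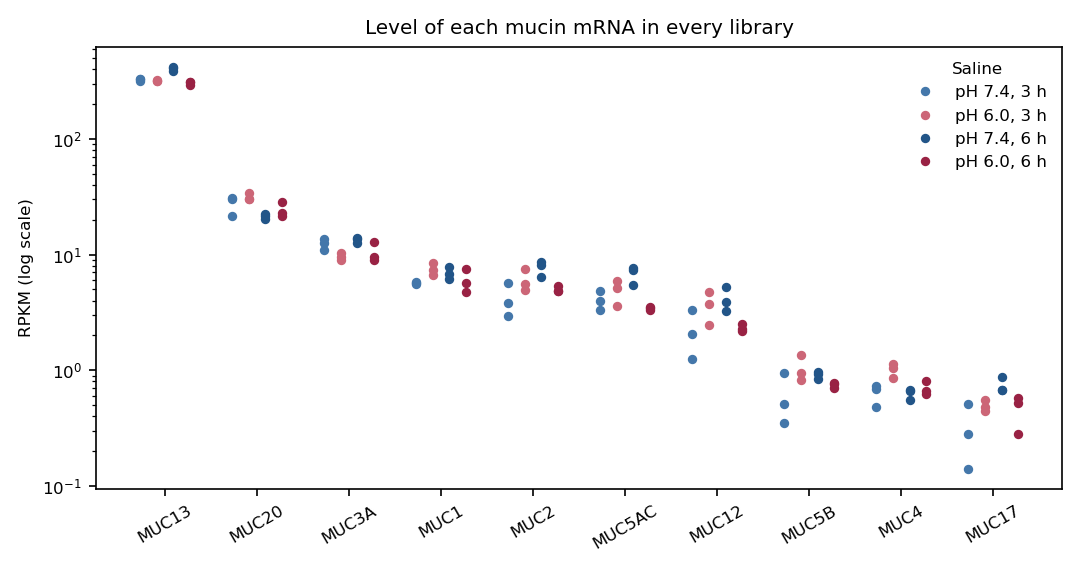
Level of the 10 mucins in RPKM on a log scale, each point 1 library, coloured by group (3 libraries each). MUC13 lies above all other mucins in every library, MUC20 and MUC3A form separate bands below it, and the ranges of neighbours from MUC1 to MUC17 overlap.

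The per-length levels depend on the gene models used by the authors. The lengths implied by their RPKM were 4238 bases for MUC3A and 4012 for MUC5AC, whereas merged exons in GENCODE 29 amount to 11374 and 17448 bases. For MUC1 they were 1811 against 4717 bases, for MUC2 8637 against 12667, for MUC4 17110 against 21325 and for MUC13 2876 against 3499. MUC20 was the reverse, with 6193 bases implied and 4249 in GENCODE 29. For MUC12, MUC5B and MUC17 the 2 sources differed little (16737 against 17130, 17924 against 18598 and 14241 against 14579 bases). The levels of MUC20, MUC2, MUC4 and MUC13 and the rank of MUC3A, MUC5AC and MUC1 relative to the long mucins are therefore tied to these models. So is any correction for gene length: at its GENCODE 29 length MUC5AC would be longer than 99.8% of the tested genes and MUC3A longer than 98.9%. MUC20 carries a further uncertainty: 42.8% of its GENCODE 29 exon bases are shared with MUC20-OT1, a non-coding gene on the same strand that was counted separately at 55.8 to 83.4 CPM, and how reads in the shared stretch were assigned is not given in the sources used here. MUC3A shares 6.50% of its exon bases with an antisense gene and has a near-identical copy known as MUC3B, so its counts are uncertain too. Antisense genes share at most 2.33% of the exon bases of MUC5B and MUC12.

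Promoter sequences are printed for some of the members that moved, to show what the stretch before each start holds. MUC1, MUC3A and MUC12 were also called in some comparison, and their sequences are not printed. The RefSeq table of promoters (build GRCh38.p14, not the build of the counts, hg19) has an entry for 7 members. MUC5AC, MUC5B and MUC20 have none. The 250 bases upstream of the start are shown 5′ to 3′ on the gene's strand for MUC13, the most abundant member, at chr3:124934752-124935001 (minus strand), for MUC2 at chr11:1074624-1074873 (plus strand), for MUC17 at chr7:101019831-101020080 (plus strand) and for MUC4 at chr3:195811930-195812179 (minus strand). Capitals mark matches, on either strand, to any of 10 short motifs. The AP-1 motif was searched as TGANTCA, and the CRE, the cyclic AMP response element, as TGACGTCA. The GC box bound by SP factors was searched as GGGCGG, and the KLF motif as CCACCC. For the TATA box the letters were TATAAA, and for the HNF1 core they were GTTAAT. For the GATA motif the letters were AGATAA. The E-box was searched as CACGTG and contains the hypoxia core, which was searched as ACGTG. The NF-kB motif completes the set.
MUC13: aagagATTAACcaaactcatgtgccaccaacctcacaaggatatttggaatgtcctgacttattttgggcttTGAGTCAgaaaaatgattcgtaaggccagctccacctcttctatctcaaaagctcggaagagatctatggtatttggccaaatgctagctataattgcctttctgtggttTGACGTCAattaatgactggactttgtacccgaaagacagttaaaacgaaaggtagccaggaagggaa
MUC2: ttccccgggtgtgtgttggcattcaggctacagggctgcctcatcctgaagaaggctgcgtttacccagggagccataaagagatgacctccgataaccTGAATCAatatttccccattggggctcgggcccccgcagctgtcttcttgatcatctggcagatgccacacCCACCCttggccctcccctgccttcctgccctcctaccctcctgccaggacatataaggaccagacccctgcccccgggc
MUC17: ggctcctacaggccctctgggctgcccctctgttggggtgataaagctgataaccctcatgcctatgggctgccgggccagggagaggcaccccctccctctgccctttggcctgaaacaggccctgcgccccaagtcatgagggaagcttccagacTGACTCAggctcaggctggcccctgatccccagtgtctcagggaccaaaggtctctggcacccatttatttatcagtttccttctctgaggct
MUC4: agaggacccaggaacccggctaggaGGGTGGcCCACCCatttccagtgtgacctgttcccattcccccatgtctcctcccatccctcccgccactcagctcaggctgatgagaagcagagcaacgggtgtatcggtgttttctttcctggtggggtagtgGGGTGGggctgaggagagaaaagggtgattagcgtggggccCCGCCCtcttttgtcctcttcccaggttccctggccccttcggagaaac

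MUC13 holds the AP-1 motif with its first base at position −178 from the start, the CRE motif at −68 and, on the opposite strand, the HNF1 core at −245. MUC2 holds a match to the AP-1 search at −151 and the KLF motif at −80, and MUC17 the AP-1 motif at −93. The AP-1 search left the middle base free. The match reads TGAGTCA in MUC13, TGACTCA in MUC17 and TGAATCA in MUC2, so a form with only G or C there would leave out MUC2. In MUC4 the KLF motif occurs 3 times and the GC box once, at −49. Over the full windows of 250 bases before to 50 after the start, the AP-1 motif with the free middle base was present in 3 of the 7 members (MUC2 among them) and in 7.71% of the 35116 promoters of the table. AP-1 was absent from MUC1, MUC3A, MUC4 and MUC12. The CRE motif was present in 1 member and 1.85% of promoters, and the HNF1 core in 1 member and 6.88%. The GC box was present in 4 members against 45.0%, the KLF motif in 3 against 34.3%, the hypoxia core in 3 against 21.4% and the TATA box in 2 (MUC1 and MUC12) against 11.5%. No member held the letters searched for the E-box (7.26% of promoters), NF-kB (25.6%) or GATA motif (10.3%) in this window. Other forms of these motifs were not searched. TGATAA, which differs from AGATAA in its first letter, occurs in the printed MUC17 sequence and was not counted. A match is a description of these letters and not evidence of binding.

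The first comparison asked how the mucins differed between pH 6.0 and pH 7.4 after 3 h. MUC4 and MUC1, both membrane mucins, rose at pH 6.0, MUC3A fell, and 7 members did not pass the test. Thus 3 of 10 mucins changed, 2 up and 1 down, where 18.8% of all tested genes changed, 9.53% up and 9.26% down. CPM of the groups did not overlap for the same number, 3 members, against 33.0% of all genes. The median log2 fold change of the 10 mucins was 0.50, beside −0.0031 for all tested genes. With total counts alone as the scaling, 1194 genes were higher and 1752 lower, beside 1489 and 1448 with TMM factors.

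MUC4 was measured at 7.95, 11.8 and 11.6 CPM in replicates 1 to 3 of pH 7.4 and at 14.6, 17.6 and 19.2 CPM at pH 6.0. Every library at pH 6.0 was above every library at pH 7.4. The log2 fold change was 0.72 ± 0.15 (SE), or 1.64-fold, with an adjusted p of 0.00236 (edgeR quasi-likelihood test, Benjamini-Hochberg over all tested genes). With a correction for gene length the value was 0.29 and the adjusted p 0.116, which ended the call, and at the GENCODE 29 length it was 0.18 (adjusted p = 0.345).

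MUC1 was at 9.56, 9.97 and 10.2 CPM at pH 7.4 and at 12, 13.1 and 15.2 CPM at pH 6.0, again without overlap. Its log2 fold change was 0.44 ± 0.15 (1.35-fold, adjusted p = 0.0435). MUC3A went the other way, with 44.3, 54.4 and 52.6 CPM at pH 7.4 and 37.7, 39.7 and 43.1 CPM at pH 6.0, a log2 fold change of −0.33 ± 0.11 (adjusted p = 0.0492). Both calls lay close to the threshold. Leaving out any 1 of 7 libraries ended the MUC1 call (all 3 of pH 7.4 at 3 h, replicates 2 and 3 of pH 6.0 at 3 h, replicate 1 of pH 7.4 at 6 h and replicate 2 of pH 6.0 at 6 h), with log2 fold changes of 0.34 to 0.45 and adjusted p of 0.0507 to 0.211. Leaving out any 1 of 9 ended that of MUC3A (all but replicate 1 of pH 7.4 at 3 h and replicates 2 and 3 of pH 6.0 at 6 h), with −0.38 to −0.27 and adjusted p of 0.0528 to 0.135. DESeq2 called neither (adjusted p = 0.0509 for MUC1 and 0.0521 for MUC3A). MUC1 was also lost with total counts alone (0.0615) and with the length correction at the GENCODE 29 length (0.0523), and MUC3A with median-of-ratios factors (0.0536), a filter of 5 CPM (0.0794) and only the groups compared (0.0543). At its GENCODE 29 length MUC3A had −0.58 (adjusted p = 0.000723).

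MUC13 was level between the 2 pH values at 3 h. It stood at 878.4, 887.7 and 939.5 CPM at pH 7.4 and at 898.0, 908.8 and 903.1 CPM at pH 6.0. The groups overlapped, and the log2 fold change of 0.0023 had a 95% interval of −0.15 to 0.16, so changes beyond about this size are outside the interval. MUC20 had a log2 fold change of 0.23 (interval −0.030 to 0.49) and MUC5AC of 0.31 (−0.036 to 0.66), and neither passed the test.

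For the long mucins the libraries of pH 7.4 at 3 h were widely spread. MUC12 ran from 20.1 in replicate 1 through 34.1 in replicate 3 to 52.6 CPM in replicate 2, MUC2 from 24.4 through 32.4 to 46.8 CPM, MUC5B from 6.1 through 9.10 to 16.2 CPM and MUC17 from 1.93 through 3.93 to 6.83 CPM. In all 4 genes replicate 1 was lowest and replicate 2 highest. At pH 6.0 and 3 h MUC12 was spread too, at 40.8, 78.2 and 62.2 CPM in replicates 1 to 3. Replicate 2 was also the highest of that group for MUC2 and MUC5B. The log2 fold changes at pH 6.0 were 0.76 ± 0.36 for MUC12, 0.57 ± 0.22 for MUC2, 0.82 ± 0.29 for MUC5B and 0.74 ± 0.37 for MUC17, with adjusted p of 0.182, 0.0928, 0.0676 and 0.185. Without replicate 2 of pH 7.4 at 3 h they were 1.16, 0.85, 1.29 and 1.30 with adjusted p of 0.0489, 0.00332, 7e-05 and 0.00562, and 5 mucins were then called, all higher at pH 6.0. This was the only one of the 12 fits without 1 library that called any of these 4 genes. The lowest values among the 12 fits were 0.46, 0.36, 0.52 and 0.35. The largest edgeR adjusted p among them were 0.468, 0.305, 0.232 and 0.434. With all libraries kept, MUC2 passed with a filter of 5 CPM (adjusted p = 0.0493) and MUC5B with that filter (0.0373) and with no filter (0.0343). The length correction brought the 4 values to 0.36, 0.41, 0.40 and 0.43, none of them called.

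**Figure D2:**
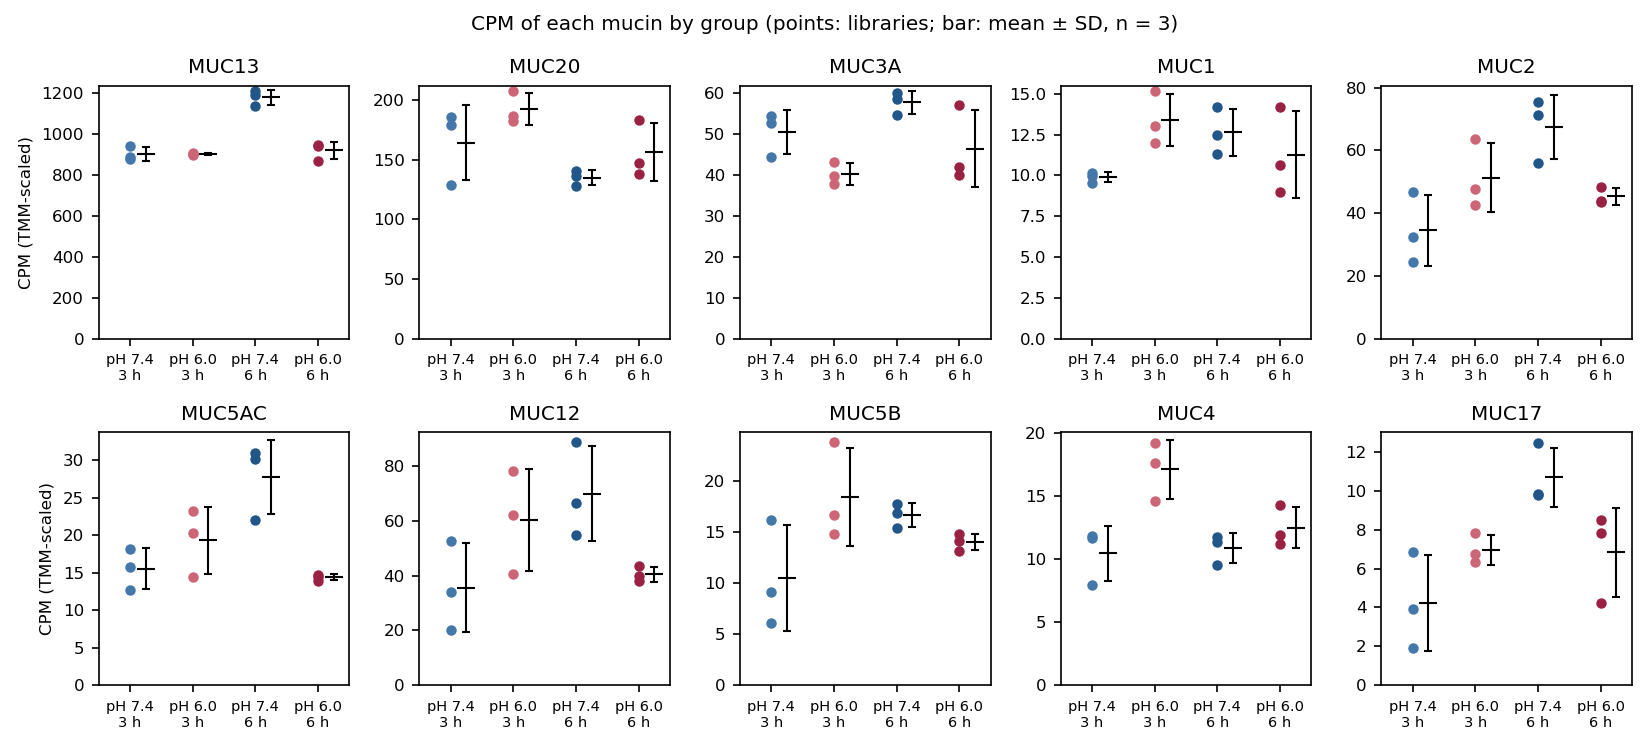
CPM of each mucin in the 4 groups, with each library as a point and the mean ± SD (n = 3) beside it; each panel has its own axis starting at 0. By group mean, MUC13, MUC5AC, MUC2, MUC17, MUC12 and MUC3A are highest at pH 7.4 after 6 h. The means of MUC4, MUC1, MUC5B and MUC20 are highest at pH 6.0 after 3 h. Single libraries of these 2 groups overlap in some genes, among them MUC2, MUC5AC and MUC12.

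After 6 h the direction was different: 4 mucins were lower at pH 6.0 than at pH 7.4 and none was higher. MUC5AC was 1.93-fold lower, and the most abundant member, MUC13, 1.28-fold lower. MUC2 and MUC3A fell by 0.58 and 0.32 on the log2 scale. The 4 of 10 compare with 47.0% of all tested genes changed, 25.1% lower and 21.9% higher, so the share of mucins called was near that of all genes. CPM did not overlap for 6 members, all lower at pH 6.0, against 56.6% of all genes, 29.7% lower and 26.9% higher. The median log2 fold change of the mucins was −0.34, beside −0.00076 for all tested genes. The summed CPM of the 15 epithelial markers moved the other way, at 14358 to 15567 at pH 6.0 and 11776 to 12072 at pH 7.4, and its part in the mucin results was not tested.

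MUC5AC, a gel-forming mucin, was at 22.0, 30.2 and 31.0 CPM at pH 7.4 and at 14.7, 13.9 and 14.5 CPM at pH 6.0. The 3 acidic libraries lay close together and below every neutral one. The log2 fold change was −0.95 ± 0.17 (adjusted p = 0.000114), and −0.87 with the gene length correction (adjusted p = 0.000132). Since that correction took MUC5AC as 4012 bases long, it was repeated at the GENCODE 29 lengths of the mucins, which gave −0.59 (adjusted p = 0.000161). This second correction was chosen after seeing the data. MUC13 was at 1189, 1137 and 1211 CPM at pH 7.4 and at 943.4, 869.1 and 945.1 CPM at pH 6.0, without overlap. Its log2 fold change was −0.36 ± 0.075 (adjusted p = 0.000447), −0.36 with the first correction and −0.31 with the second. These 2 calls were kept in each alternative tried.

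MUC2, the colonic gel former, was at 56.1, 75.5 and 71.1 CPM at pH 7.4 and at 44.0, 43.6 and 48.4 CPM at pH 6.0. The groups did not overlap, and the log2 fold change was −0.58 ± 0.22 (adjusted p = 0.0459). With the length correction it was −0.29 (adjusted p = 0.160), or −0.24 (0.136) at the GENCODE 29 length, DESeq2 gave an adjusted p of 0.0549, and it missed the threshold without any 1 of 8 libraries (replicate 3 of pH 7.4 at 3 h, replicates 1 and 3 of pH 6.0 at 3 h, replicates 2 and 3 of pH 7.4 at 6 h and all 3 of pH 6.0 at 6 h), with −0.59 to −0.48 and adjusted p of 0.0582 to 0.132. MUC3A was at 60.0, 54.5 and 58.5 CPM at pH 7.4 and at 42.0, 39.8 and 57.1 CPM at pH 6.0, where replicate 3 reached the neutral range. Its log2 fold change was −0.32 ± 0.11 (adjusted p = 0.0255), and −0.22 with the correction (adjusted p = 0.107). At its GENCODE 29 length it was 0.0082 (adjusted p = 0.959), which turned the direction, and the call was also lost with a filter of 5 CPM (adjusted p = 0.0572). It was lost too without replicate 3 of pH 7.4 at 3 h, replicate 1 or 3 of pH 7.4 at 6 h, or replicate 1 or 2 of pH 6.0 at 6 h (−0.31 to −0.18, adjusted p of 0.0545 to 0.237).

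Of the other long mucins, MUC12, MUC17 and MUC5B were lower at pH 6.0 in every library without passing the test. MUC12 was at 54.9, 66.4 and 88.9 CPM at pH 7.4 and at 38.1, 43.4 and 39.8 CPM at pH 6.0 (log2 fold change −0.79 ± 0.36, adjusted p = 0.105). MUC17 was at 9.83, 9.78 and 12.5 CPM against 7.81, 8.49 and 4.23 CPM (−0.63 ± 0.34, adjusted p = 0.154), and MUC5B at 15.4, 17.7 and 16.8 CPM against 13.1, 14.1 and 14.7 CPM (−0.25 ± 0.28, adjusted p = 0.508). When only the 2 groups at 6 h were fitted, MUC12 and MUC17 passed as lower (adjusted p = 0.00121 and 0.0133) and MUC20 as higher (adjusted p = 0.0327). With the length correction MUC12 had −0.42 and MUC17 −0.28, and MUC5B turned to 0.11, none of them called.

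MUC4, MUC20 and MUC1 did not pass the test at 6 h. MUC4 was at 9.54, 11.8 and 11.4 CPM at pH 7.4 and at 11.2, 14.3 and 11.9 CPM at pH 6.0 (log2 fold change 0.20 ± 0.16), and MUC20 at 136.4, 128.0 and 140.6 CPM against 147.4, 138.4 and 183.9 CPM (0.21 ± 0.12). With the correction for gene length both were called higher at pH 6.0 (0.55, adjusted p = 0.00126, and 0.43, adjusted p = 0.00673). At the GENCODE 29 lengths MUC4 kept 0.56 and its call, and MUC20 had 0.32 (adjusted p = 0.0549). MUC1 was at 12.4, 11.3 and 14.2 CPM against 8.97, 10.6 and 14.2 CPM (−0.17 ± 0.15).

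**Figure D3:**
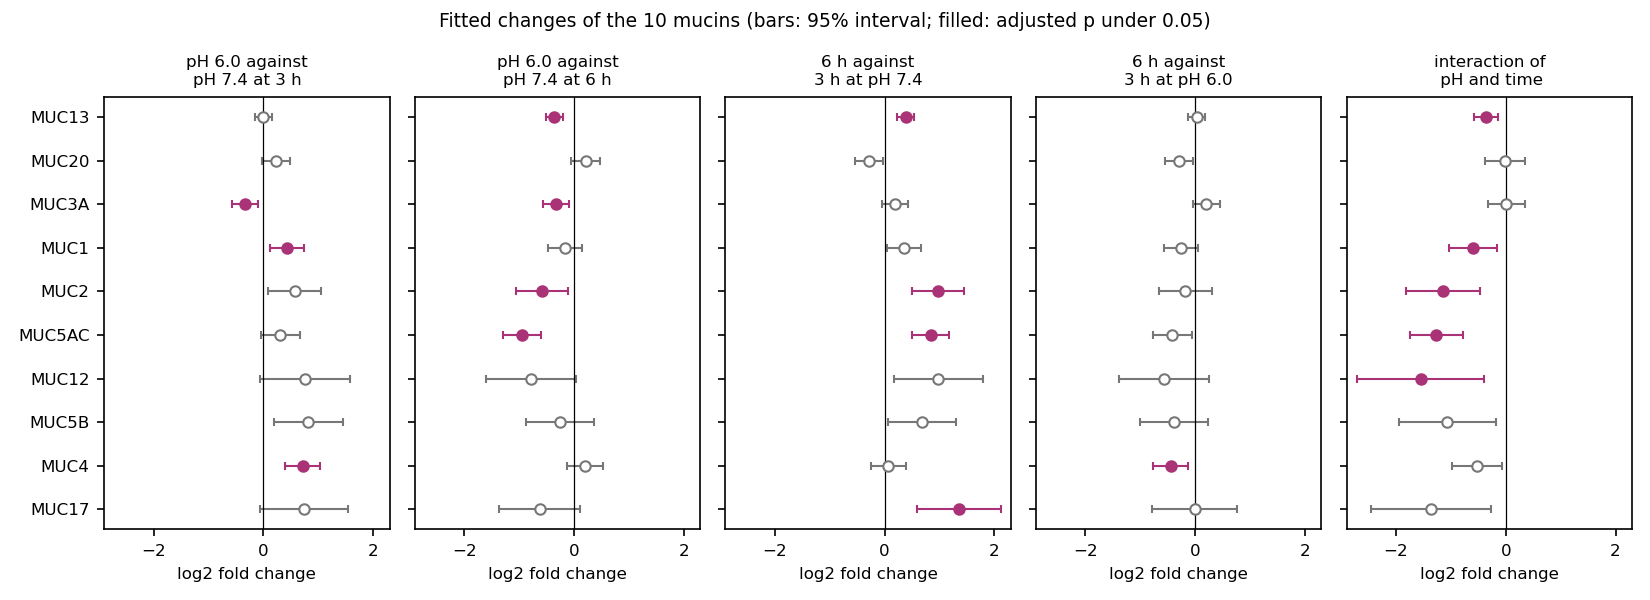
Log2 fold change of each mucin with its 95% interval in the 4 pairwise comparisons and for the interaction; filled points have an adjusted p under 0.05. The called changes at 6 h for pH and all 5 in the interaction lie below 0, those for time at pH 7.4 above 0.

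Between 3 h and 6 h in saline of pH 7.4, 4 mucins rose and none fell: MUC17, MUC2, MUC5AC and MUC13. The 4 of 10 compare with 31.6% of all tested genes changed, 17.2% higher and 14.4% lower. The median log2 fold change was 0.53, beside −0.016 for all tested genes, and 7 members had groups that did not overlap, all higher at 6 h, against 43.4% of genes, 22.7% higher. With total counts alone 2093 genes were higher and 3179 lower, beside 2695 and 2247 with TMM factors, while 4 mucins were called higher and 1, MUC20, lower. MUC20, at 129, 179 and 186 CPM at 3 h and 136, 128 and 141 CPM at 6 h, overlapping, had a log2 fold change of −0.28 ± 0.12 (adjusted p = 0.0877) and −0.36 with total counts alone (adjusted p = 0.0277). It was called lower with no filter too (adjusted p = 0.00328).

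MUC13 rose from 878.4, 887.7 and 939.5 CPM to 1189, 1137 and 1211 CPM, a log2 fold change of 0.39 ± 0.075 (1.31-fold, adjusted p = 0.000504). MUC5AC rose from 12.7, 18.2 and 15.7 CPM to 22.0, 30.2 and 31.0 CPM (0.84 ± 0.16, 1.79-fold, adjusted p = 0.000701). MUC2 rose from 24.4, 46.8 and 32.4 CPM to 56.1, 75.5 and 71.1 CPM (0.97 ± 0.22, 1.96-fold, adjusted p = 0.00577). In each of these genes every 6 h library was above every 3 h library, and each call was kept with the length correction (0.47, 0.81 and 0.66). At the GENCODE 29 lengths MUC13 had 0.40 and MUC2 0.52, both called, but MUC5AC had 0.23 (adjusted p = 0.128), which ended its call. Each of the 3 calls was kept in every other alternative. MUC17, on few counts, rose from 1.93, 6.83 and 3.93 CPM to 9.83, 9.78 and 12.5 CPM (1.36 ± 0.35, 2.57-fold, adjusted p = 0.0118). It was called with the length correction as well (0.87, adjusted p = 0.0267) but not without replicate 3 of pH 7.4 at 6 h (1.24, adjusted p = 0.0522).

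MUC12, with a log2 fold change of 0.98 ± 0.36, did not pass here (adjusted p = 0.0692), but DESeq2 called it higher (adjusted p = 0.0212), as did the fit with a filter of 5 CPM (0.0233). With the length correction it had 0.43 and was not called.

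The summed RPKM of the 10 mucins was 382.7 ± 14.9 at pH 7.4 and 3 h, 384.8 ± 9.91 at pH 6.0 and 3 h, 467.3 ± 17.5 at pH 7.4 and 6 h and 359.1 ± 17.3 at pH 6.0 and 6 h (SD, n = 3 each). The 3 libraries of pH 7.4 at 6 h, at 450.2 to 485.1 RPKM, were above the other 9, at 340.3 to 392.9. Without MUC13 the sums were 57.5 ± 9.96, 65.9 ± 5.84, 62.8 ± 4.21 and 53.2 ± 7.03 RPKM and their ranges overlapped between neighbouring groups, so the higher sum at pH 7.4 and 6 h came from MUC13. In bulk RNA a change in the number of cells that make a mucin and a change of its mRNA per cell cannot be told apart.

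Between 3 h and 6 h at pH 6.0 only MUC4 passed the test, 1 of 10 beside 19.5% of all tested genes (10.9% lower, 8.64% higher). It fell from 14.6, 17.6 and 19.2 CPM to 11.2, 14.3 and 11.9 CPM, a log2 fold change of −0.45 ± 0.15 (adjusted p = 0.0430). MUC4 and MUC5B had groups that did not overlap, both lower at 6 h, 2 of 10 beside 35.6% of all genes and 19.6% in that direction. The median over the 10 mucins was −0.28, beside −0.019 for all tested genes. The MUC4 call was lost with the length correction (−0.26, adjusted p = 0.150), under DESeq2 (adjusted p = 0.0563) and without any 1 of 7 libraries (replicate 3 of pH 7.4 at 3 h, replicates 1 and 2 of pH 7.4 at 6 h, replicates 2 and 3 of pH 6.0 at 3 h and replicates 1 and 3 of pH 6.0 at 6 h), with −0.44 to −0.35 and adjusted p of 0.0527 to 0.194. At the GENCODE 29 lengths the MUC4 call was lost too, and the 1 mucin called was higher at 6 h. Over all genes, total counts alone gave 773 higher and 2499 lower and the length correction 2174 and 1453, beside 1351 and 1699.

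MUC13 stayed within a narrow interval at pH 6.0: its log2 fold change from 3 h to 6 h was 0.025, with a 95% interval of −0.13 to 0.18. That interval does not reach the 0.39 measured at pH 7.4. MUC2 had −0.18 (interval −0.66 to 0.30) and MUC17 −0.0093 (−0.79 to 0.77), both wide. MUC5AC, at 14.4, 23.2 and 20.3 CPM at 3 h and 14.7, 13.9 and 14.5 CPM at 6 h, had −0.42 ± 0.17 (adjusted p = 0.0905). MUC20, at 187.1, 182.7 and 208.1 CPM and then 147.4, 138.4 and 183.9 CPM, had −0.30 ± 0.12 (adjusted p = 0.0986). Each was called lower in 4 of 9 alternatives: total counts alone, no filter, only the groups compared and the replicate block. Leaving out 1 library called MUC5AC in 1 of 12 fits and MUC20 in 2.

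The interaction tested directly whether the pH effect differed between 6 h and 3 h. It passed for 5 of 10 mucins, all in the lower direction, beside 29.4% of all tested genes (16.3% lower, 13.1% higher). The median over the mucins was −0.84, beside −0.030 for all tested genes. For MUC5AC the pH effect was lower at 6 h than at 3 h by 1.26 ± 0.23 on the log2 scale (interaction −1.26, adjusted p = 0.000722), for MUC2 the value was −1.15 ± 0.31 (adjusted p = 0.0162) and for MUC13 −0.36 ± 0.11 (adjusted p = 0.0137). With the length correction these were −1.15, −0.70 and −0.41 and remained called. At the GENCODE 29 lengths they were −0.45 (adjusted p = 0.0459), −0.52 (0.0447) and −0.32 (0.0168). The first correction turned the split over all genes from 2048 higher and 2541 lower to 2013 and 1533. The MUC13 call was lost in 1 alternative, without replicate 2 of pH 6.0 at 6 h (−0.29, adjusted p = 0.0592).

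MUC12 had the largest interaction of the 10, −1.55 ± 0.51 (adjusted p = 0.0499), and MUC1 had −0.60 ± 0.21 (adjusted p = 0.0350). MUC12 was called without replicate 2 of pH 7.4 at 3 h and without replicate 1 of pH 6.0 at 3 h, and lost without any of the other 10 libraries (−1.69 to −1.24, adjusted p of 0.0508 to 0.122) and with the length correction (−0.79, adjusted p = 0.101), total counts alone (adjusted p = 0.0526) and no filter (adjusted p = 0.103). MUC1 was lost without any 1 of 8 libraries, namely replicates 1 and 3 of pH 7.4 at either time, replicates 2 and 3 of pH 6.0 at 3 h and replicates 1 and 2 of pH 6.0 at 6 h (−0.62 to −0.43, adjusted p of 0.0520 to 0.138), and at its GENCODE 29 length (−0.42, adjusted p = 0.137). MUC17 and MUC5B had values of −1.37 ± 0.50 and −1.07 ± 0.40 and did not pass (adjusted p = 0.0595 and 0.0676). Both were called with no filter (0.0102 and 0.0398) and with a filter of 5 CPM (0.0365 and 0.0410), and with the length correction they had −0.71 and −0.29, not called. MUC4 had −0.52 ± 0.22 (adjusted p = 0.0805), and 0.27 with the correction. MUC20 had −0.015, and MUC3A had 0.0088, the difference between pH effects of −0.33 at 3 h and −0.32 at 6 h. At its GENCODE 29 length MUC3A had an interaction of 0.59 (adjusted p = 0.00899). Without replicate 2 of pH 7.4 at 3 h, 8 mucins were called in the interaction, all lower.

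Gene length moved with several of these results. Among all tested genes, the longest 10% (from 6463 bases) had a median log2 fold change of 0.35 for time at pH 7.4, −0.32 for pH at 6 h and −0.49 for the interaction, where the shortest 10% had −0.046, 0.26 and −0.018. MUC2, MUC4, MUC5B, MUC12 and MUC17 belong to that longest 10%, while MUC13 at 2876 bases is longer than 47.7% of tested genes, or than 58.7% at its GENCODE 29 length. MUC5AC is a mid-length gene at the recovered 4012 bases and one of the longest at its GENCODE 29 length. The correction, a smooth function of length fitted within each library, brought MUC12 at pH 7.4 from 0.98 to 0.43, MUC5B from 0.68 to 0.11 and MUC4 from 0.070 to −0.53, the last then called lower (adjusted p = 0.00442). In the same comparison MUC13 had 0.47 in place of 0.39, and MUC5AC 0.81 in place of 0.84 at the recovered length but 0.23 at the GENCODE 29 length. For MUC20 at pH 7.4 it gave −0.48 (adjusted p = 0.00692) in place of −0.28 (adjusted p = 0.0877), and for MUC1 0.50 (adjusted p = 0.0150) in place of 0.35 (adjusted p = 0.0758). At the GENCODE 29 lengths neither was called (−0.34 and 0.26, adjusted p = 0.0642 and 0.197). The cause of the length trend was not tested.

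**Figure D4:**
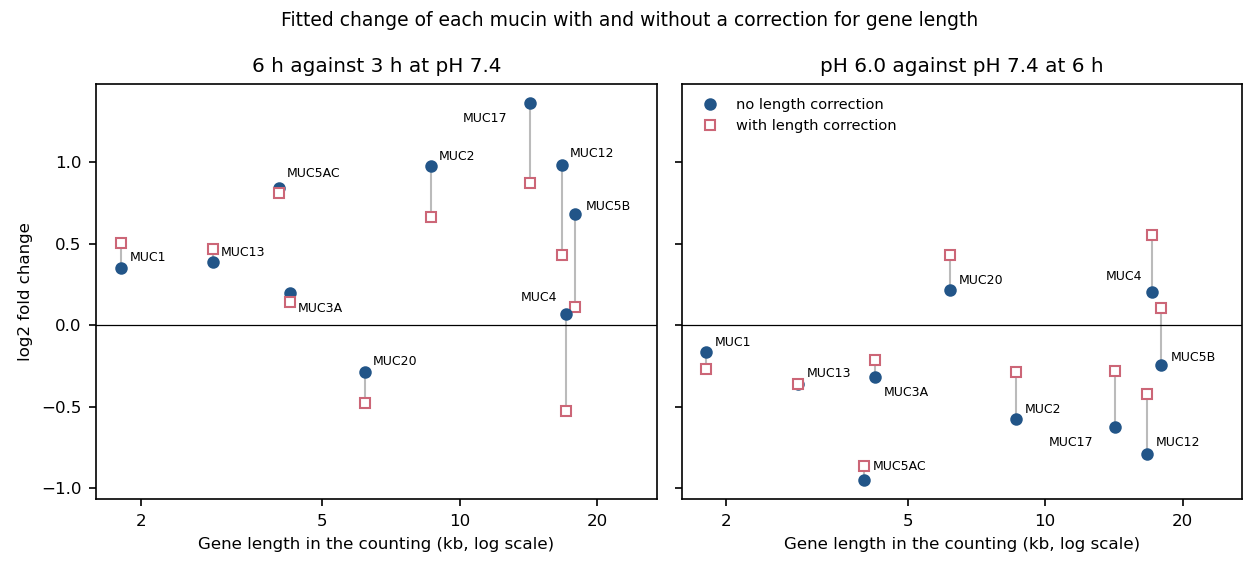
Log2 fold change of each mucin against its gene length (log scale), for time at pH 7.4 (left) and pH at 6 h (right), without (filled) and with (open) the gene length correction. Lengths are those recovered from RPKM; the 5 mucins over 8 kb shift most, and the small shift of MUC5AC holds for the 4012 bases used for it.

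The mucins did not all vary together over the 12 libraries. On log2 CPM the Pearson correlation was 0.93 between MUC2 and MUC12, 0.90 between MUC5B and MUC12 and 0.89 between MUC2 and MUC5B, but −0.50 between MUC3A and MUC4 and −0.49 between MUC13 and MUC20. With group means removed the first 3 were 0.91, 0.90 and 0.96, and the last 2 turned to 0.25 and 0.63. The points share libraries, groups and depth, and the first 3 genes are all long. Once group means were removed, the deviation of MUC5AC correlated at 0.80 with the length trend of the library, that of MUC12 at 0.78, of MUC2 at 0.65 and of MUC5B at 0.63, while MUC13 had 0.33. Among 9177 genes of at least 10 CPM on average, those most like MUC13 were GFPT1 (0.976), SH3D19 (0.972) and HKDC1 (0.967). Those most like MUC20 were ALDH3B1 (0.948), CES3 (0.923) and APOBR (0.911), and those most like MUC3A were MKRN1 (0.931), SVIL-AS1 (0.906) and EXD2 (0.903). These correlations describe 12 libraries in 4 groups and carry no test.

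Other members of the wider mucin family were read from a list of 18 mucins and mucin-like genes, of which 9 could be tested. At 6 h 2 were higher at pH 6.0 and 1 lower, 33.3% of the list beside 47.0% of all tested genes, with a median of 0.10. HAVCR1, a mucin-domain receptor for phosphatidylserine, rose from 49.8 ± 2.41 to 177.9 ± 3.14 CPM (log2 fold change 1.84 ± 0.085, adjusted p = 9.8e-14), and CD164, a small sialomucin, from 563.2 ± 9.88 to 716.7 ± 40.7 CPM (0.35 ± 0.074, adjusted p = 0.000545). MUC6, the gel-forming mucin of gastric glands, fell from 5.61 ± 0.173 to 1.22 ± 0.497 CPM (−2.22 ± 0.25, adjusted p = 2.78e-07, SD and n = 3 for each CPM value). MUC6 had already fallen at 3 h, from 4.30 ± 0.549 to 1.24 ± 0.306 CPM (−1.77 ± 0.25). At 3 h 4 of the 9 were higher and 1 lower, 55.6% beside 18.8%. PODXL, the podocyte sialomucin, did not pass at 6 h (0.17 ± 0.079, adjusted p = 0.0769).

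Mucin-type O-glycosylation, the pathway that builds the sugar chains on the mucin repeats, had 30 tested genes of 37 listed. At 6 h 7 were higher and 13 lower at pH 6.0, which is 66.7% of the list beside 47.0% of all tested genes. At 3 h 4 were higher and 4 lower, 26.7% beside 18.8%. The list's median at 6 h was −0.078. FUT4, a fucosyltransferase, fell from 106.3 ± 6.99 to 44.8 ± 3.20 CPM (−1.25 ± 0.085), B3GNT3, which extends core 1 chains, from 221.7 ± 12.4 to 112.1 ± 10.5 CPM (−0.98 ± 0.087), and ST3GAL2, a sialyltransferase, from 39.2 ± 1.28 to 23.8 ± 2.10 CPM (−0.72 ± 0.098). GALNT4, a transferase that adds the first sugar, fell from 16.7 ± 1.28 to 4.56 ± 0.529 CPM (−1.86 ± 0.17). The adjusted p of these 4 genes was at most 3.02e-06. They are those of smallest p, and all 4 fell. More abundant genes of the GALNT family were higher at pH 6.0 after 6 h, without overlap of the libraries. By group mean GALNT1 went from 94.4 to 123.4 CPM, GALNT3 from 118.1 to 146.6 and GALNT6 from 107.6 to 152.2. GALNT5 and GALNT10 were lower, from 49.8 to 40.4 and from 72.3 to 61.2 CPM. The fall of GALNT4 therefore does not stand for its family. At pH 7.4, 10 genes of the list rose between 3 h and 6 h and 2 fell, 40.0% beside 31.6%, and in the interaction 2 were higher and 9 lower, 36.7% beside 29.4%.

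The list of goblet cell mucus partners, which fold, package and accompany mucins, had 21 tested genes of 28. None was called at 3 h by edgeR, although 4 had an unadjusted p under 0.05, and 9 were higher and 2 lower at pH 6.0 after 6 h, with a median of 0.45. The called share, 52.4%, was near the 47.0% of all tested genes. PDIA3, a disulphide isomerase of the endoplasmic reticulum, rose from 410.0 ± 23.9 to 578.1 ± 24.3 CPM (0.50 ± 0.085) and AGR3, of the same isomerase family, from 1.97 ± 0.419 to 5.24 ± 1.06 CPM (1.40 ± 0.24). ERN2, the stress sensor of goblet cells, fell from 71.6 ± 2.42 to 39.2 ± 5.70 CPM (−0.87 ± 0.098) and SYTL2, a vesicle-docking protein, from 126.7 ± 8.92 to 68.4 ± 3.58 CPM (−0.89 ± 0.14). The adjusted p of these 4 was at most 0.000101.

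Of the transcription factors of the secretory lineage, 16 of 18 were tested, and 2 were higher and 7 lower at pH 6.0 after 6 h, 56.2% beside 47.0% of all tested genes. At 3 h 4 were higher and 6 lower, 62.5% beside 18.8%. SOX9, a factor of crypt progenitors and Paneth cells, fell from 263.8 ± 6.27 to 85.0 ± 1.29 CPM (−1.63 ± 0.083), GATA6 from 72.9 ± 3.68 to 29.1 ± 1.16 CPM (−1.33 ± 0.081) and FOXA1 from 22.0 ± 1.37 to 12.2 ± 1.21 CPM (−0.85 ± 0.11). ELF3, an epithelial ETS factor, rose from 98.6 ± 4.18 to 235.1 ± 24.7 CPM (1.25 ± 0.095). These 4 genes had changed in the same directions at 3 h (−0.59, −0.72, −0.85 and 0.93), and their adjusted p at 6 h was at most 2.39e-06. The list's median at 6 h was −0.17.

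Of the 13 tested proteases and partners that cleave or shed membrane mucins, 3 were higher and 3 lower at pH 6.0 after 6 h, with a median of 0.15. The called share, 46.2%, was near the 47.0% of all tested genes. FURIN, a proprotein convertase, fell from 259.5 ± 14.1 to 175.4 ± 9.44 CPM (−0.56 ± 0.073). SEC11A, a signal peptidase subunit, rose from 77.9 ± 7.48 to 105.9 ± 4.40 CPM (0.44 ± 0.097) and the metalloprotease MMP7 from 61.4 ± 3.14 to 85.1 ± 3.17 CPM (0.47 ± 0.11). Their adjusted p was at most 0.00086.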

How the data were processed

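RNA-seq of 12 T84 libraries was analysed from per-sample tables that hold read counts per Ensembl gene and RPKM values made from them, both deposited by the authors. STAR, CASAVA and the hg19 build are named in, and credited to, the submitters' processing notes. What is not given in the sources used here includes versions, annotation, counting program, strand use and the treatment of multiply mapped reads. No coordinates of the counts are printed. The 10 mucins and all gene lists were chosen with earlier results of these data known.

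Counts were tested with edgeR 4.0.16 (R 4.3.3): TMM factors, the default expression filter, which left 15630 genes, a robust quasi-likelihood fit of 4 groups over all 12 libraries (8 residual degrees of freedom), and Benjamini-Hochberg adjustment over all tested genes, called under 0.05. Standard errors were derived from the log2 fold change and its F statistic, and 95% intervals from these. The common biological coefficient of variation was 9.29%, and each gene's precision comes from its own dispersion. Gene lengths were recovered from counts and RPKM. They give back 100% of the RPKM values within a relative 1e-06, which is no independent check. Symbols and exon overlaps came from GENCODE 29 and names tables (45342 identifiers with a symbol), promoters and neighbours from RefSeq.

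Named genes are the 10 mucins, up to 4 tested genes per list with the smallest p for pH at 6 h (1 of them is not reported here), and the 3 genes most correlated with each of the 3 mucins of highest RPKM. Alternatives were DESeq2 1.42.0, median-of-ratios factors, total counts, no filter, a filter of 5 CPM in 3 libraries, only the groups compared, the replicate block, a natural spline of gene length with 5 degrees of freedom per library, and leaving out each library. The length correction with the mucins at their GENCODE 29 lengths was added after the data were seen. For list genes the alternatives were added after the data were seen. No library was a copy of another of its group, since counts differed beyond sampling noise (chi-square over degrees of freedom, 5.40 to 19.5). The procedure was tested on simulated counts.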

Additional observations from a re-analysis of the deposited data

Results flagged for a closer look

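The pH effect on 5 mucins differed between 6 h and 3 h by the interaction term, with edgeR over all 12 libraries. The difference, as the log2 fold change for pH 6.0 against pH 7.4 at 6 h minus that at 3 h, was −0.60 for MUC1 (−0.17 at 6 h and 0.44 at 3 h), −1.15 for MUC2 (−0.58 and 0.57), −1.26 for MUC5AC (−0.95 and 0.31), −1.55 for MUC12 (−0.79 and 0.76) and −0.36 for MUC13 (−0.36 and 0.0023). In MUC13 and MUC5AC all pH 7.4 libraries at 6 h exceeded all of pH 7.4 at 3 h and pH 6.0 at 6 h. The same held for MUC2, MUC12 and MUC17, the last not called in the interaction. MUC13 stood at 1179 ± 38.2 CPM (SD, n = 3) at pH 7.4 and 6 h and at group means of 901.9 to 919.2 CPM elsewhere. That group's libraries also had the highest correlation of deviation with gene length, 0.19 to 0.33, and the part of this trend in the results for the long genes MUC2 and MUC12 was not tested beyond the length correction, under which MUC2 had −0.70 and MUC12 −0.79, or −0.52 and −0.78 at their GENCODE 29 lengths, where MUC5AC had −0.45.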

How the results depend on the processing

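Counts of called mucins were 3, 4, 4, 1 and 5 for pH at 3 h, pH at 6 h, time at pH 7.4, time at pH 6.0 and the interaction. The replicate block gave 6, 5, 8, 3 and 7. Residual correlations showed no clear pairing by replicate number. They exceeded 0.1 in 2 of 18 same-number pairs (median 0.031, maximum 0.226) and 4 of 36 others (median −0.022, maximum 0.156). With 3 libraries a group these values cannot settle whether the numbers pair the libraries. Leaving out each library in turn gave 1 to 5, 2 to 6, 3 to 6, 0 to 2 and 2 to 8 called mucins, and for all genes 1648 to 3617 for pH at 3 h (2937 with all libraries) and 1915 to 3408 for time at pH 6.0 (3050). The lowest of these came without replicate 3 of pH 6.0 at 3 h, and for pH at 3 h 1661 came without replicate 1 of pH 7.4 at 3 h and 1649 without replicate 2 of pH 6.0 at 3 h. DESeq2 gave 1 mucin for pH at 3 h and 0 for time at pH 6.0, and the length correction gave 7 for time at pH 7.4 (5 higher, 2 lower) and 0 for time at pH 6.0. For time at pH 6.0, total counts alone, no filter and the groups compared alone each gave 3, and for pH at 6 h the groups compared alone gave 7. MUC4 for time at pH 7.4 turned from 0.070 to −0.53 with the length correction and to −0.62 at the GENCODE 29 lengths, a correction chosen after seeing the data, which also turned MUC3A for pH at 6 h from −0.32 to 0.0082 and left 1 mucin called for pH at 3 h. Other alternatives kept each count within 1.5 times. For time at pH 6.0 the 1 mucin called at the GENCODE 29 lengths was higher, where the main fit called MUC4 lower. MUC5AC and MUC13 for pH at 6 h and MUC13 and MUC2 for time at pH 7.4 kept their calls under each alternative, and MUC5AC for time at pH 7.4 under all but that at the GENCODE 29 lengths (0.23). Why calls were gained or lost was not tested. MUC17 had the fewest counts of the members, 49 to 205 a library. Among list genes, calls at 3 h that were lost without 1 library were those of B3GNT3, ST3GAL2, CD164 and PODXL, and the 19 called at 6 h kept theirs.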
